A study of Mus musculus with 20 samples.

Results

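The genes described here are 10 imprinted genes that act on fetal growth: Igf2, H19, Dlk1, Meg3, Rian, Mirg, Peg3, Plagl1, Grb10 and Mest. They were taken by name from the 46603 Ensembl identifiers of the deposited count tables, through the symbols of GENCODE release M21, and all 10 were found. Igf2 and H19 were picked for their rise in the knockout after partial hepatectomy (PHx, the surgical removal of most of the liver), so their values in that comparison, and the change of the knockout after PHx, are a description with no test. These 2 genes were thus chosen by their measured counts after PHx, and the other 8 were listed by name. Of the 10 genes, 9 passed the filter on low counts, and Mirg did not.

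Liver RNA was sequenced from 20 samples of 10 male mice aged 2 months, 5 wild type and 5 with a hepatocyte knockout of Eed. The wild-type mice (WT) were C57BL/6J bought from a vendor, and no Cre or floxed allele is listed for them. The knockout mice (EedHepKO, here KO) carried Cre recombinase under the albumin promoter, which is active in hepatocytes, and loxP sites that flank exons 3 and 6 of Eed, with C57BL6/J as the labelled strain. EED is a core subunit of polycomb repressive complex 2 (PRC2), which methylates histone H3 and silences developmental genes. Each mouse gave a baseline sample (lobes 1, 2 and 3, taken at surgery) and a sample after PHx (lobes 4, 5 and 6), which makes 4 groups of 5. In each genotype 1 sample after PHx was taken at 30 h, 2 at 40 h and 2 at 48 h. Genotype and colony cannot be told apart, nor can surgery and lobe, and no sham operation is among the samples. This Cre is aimed at hepatocytes, its action in other liver cells was not measured, and the RNA is from whole liver.

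An imprinted gene is read from the copy of only the mother or only the father. In most known cases this is because the parents' germ cells leave different DNA methylation at a control region nearby. Many such genes set the size of the fetus: paternally read genes such as Igf2, Dlk1, Peg3, Plagl1 and Mest mostly favour growth, while maternally read ones such as H19 and Grb10 mostly restrain it. In mouse liver several of them are abundant before birth and are shut off in the weeks after it. The deposited counts do not separate the parental copies, so imprinting itself was not measured.

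The upstream sequence is shown for Igf2, Dlk1, Meg3, Peg3 and Grb10, chosen after their values were seen, because the compared regulator acts on chromatin at gene starts. RefSeq start sites on GRCm38.p6 matched 9 of the 10 members, with 16 windows in all, and the 250 bases before each start were read. Both strands were searched for 4 motifs, and matches are in capitals, overlapping ones merged. The motif TATAAA is known to be bound near a start by the TATA-binding protein. The motif CCAAT is bound by the factor NF-Y. The motif GGGCGG, a GC box, is bound by SP1. The motif GCCATNTT is the core of the site of YY1. Of 32851 RefSeq windows of this length, 12.4% held TATAAA, 33.8% CCAAT, 32.7% GGGCGG and 3.91% GCCATNTT. Among the 16 member windows 1, 4, 7 and 0 held them. The fourth of 4 annotated Igf2 starts (its window holds no annotated exon of the gene), the start of Dlk1, the upstream start of Meg3, the start of Peg3 and both starts of Grb10 follow.
Igf2, the fourth start, chr7:142657497-142657746, minus strand: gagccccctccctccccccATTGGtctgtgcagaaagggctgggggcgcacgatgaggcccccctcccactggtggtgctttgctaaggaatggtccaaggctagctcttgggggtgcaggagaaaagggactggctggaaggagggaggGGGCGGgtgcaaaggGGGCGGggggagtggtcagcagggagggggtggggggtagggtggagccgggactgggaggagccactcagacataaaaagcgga
Dlk1, chr12:109452573-109452822, plus strand: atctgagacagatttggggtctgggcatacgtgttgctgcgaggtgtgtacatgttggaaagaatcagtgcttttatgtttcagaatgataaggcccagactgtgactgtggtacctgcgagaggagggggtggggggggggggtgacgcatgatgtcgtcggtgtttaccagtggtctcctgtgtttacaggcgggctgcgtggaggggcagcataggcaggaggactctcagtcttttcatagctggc
Meg3, the first start, chr12:109540746-109540995, plus strand: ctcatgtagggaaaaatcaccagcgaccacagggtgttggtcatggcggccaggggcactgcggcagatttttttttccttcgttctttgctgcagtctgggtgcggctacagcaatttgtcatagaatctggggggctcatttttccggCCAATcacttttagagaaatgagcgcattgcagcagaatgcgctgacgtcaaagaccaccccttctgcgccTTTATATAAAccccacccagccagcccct
Peg3, chr7:6730420-6730669, minus strand: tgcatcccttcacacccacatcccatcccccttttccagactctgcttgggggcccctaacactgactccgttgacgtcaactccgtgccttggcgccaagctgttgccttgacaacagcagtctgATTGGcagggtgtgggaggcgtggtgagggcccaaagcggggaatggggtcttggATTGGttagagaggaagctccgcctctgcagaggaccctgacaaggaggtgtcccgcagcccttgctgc
Grb10, the first start, chr11:12037421-12037670, minus strand: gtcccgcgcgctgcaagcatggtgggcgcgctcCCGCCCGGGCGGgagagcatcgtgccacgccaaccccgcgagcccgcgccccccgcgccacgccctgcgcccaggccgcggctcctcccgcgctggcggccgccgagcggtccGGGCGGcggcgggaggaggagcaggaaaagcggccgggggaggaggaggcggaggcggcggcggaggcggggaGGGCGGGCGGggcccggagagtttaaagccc
Grb10, the second start, chr11:12027972-12028221, minus strand: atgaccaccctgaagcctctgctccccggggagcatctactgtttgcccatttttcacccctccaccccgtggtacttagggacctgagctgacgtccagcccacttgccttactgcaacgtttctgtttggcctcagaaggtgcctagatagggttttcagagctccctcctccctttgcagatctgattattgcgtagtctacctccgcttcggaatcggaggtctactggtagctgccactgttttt
The windows differed widely. The first Grb10 window held 40 CpG dinucleotides and was 81.2% G or C with 5 GC boxes, whereas the second held 8 CpG and no motif searched. The Meg3 window alone held TATAAA, on both strands with overlap, beside a CCAAT box. The Peg3 window held 2 CCAAT boxes, the Igf2 window 1 CCAAT box and 2 GC boxes, and the Dlk1 window none. The median number of CpG per window was 9 over the members' windows and 6 over all. A match is a description of letters and not a bound site.

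H19 and Igf2 each host a microRNA gene. The mature arms of miR-675, inside H19, are shown with the seed (bases 2 to 8) in capitals.
mmu-miR-675-5p: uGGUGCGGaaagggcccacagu
mmu-miR-675-3p: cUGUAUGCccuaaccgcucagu
These arms have different seeds. The libraries were made from poly(A) RNA, and all 23 microRNA genes and 13 small nucleolar RNA genes annotated inside the members had 0 counts in every library, so these small RNAs were not measured and only their host transcripts were.

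Total counts ran from 21634890 to 30461351 per library. Values are given as CPM, counts per 1000000 of the library total scaled by TMM, a factor that adjusts for differences in RNA composition. Groups were compared with edgeR's quasi-likelihood test on the counts of the 14661 genes that passed the filter, and a gene is called where its adjusted p, corrected over these genes, is under 0.05. Log2 differences are KO minus WT, and log2 responses are after PHx minus baseline. The TMM factors were lowest in WT at baseline, 0.670 to 0.806, and highest in KO after PHx, 0.977 to 1.51, so the scaling bears on every comparison. With library size alone in its place the median log2 change over all genes moved from -0.03 to 0.45 for KO against WT at baseline and from -0.01 to 0.37 after PHx, and the calls moved from 1631 higher and 717 lower to 3521 and 113 at baseline and from 2342 and 1202 to 3897 and 296 after PHx. For the response to PHx it moved the calls from 1677 and 1273 to 3796 and 582 in WT, and from 2561 and 1770 to 4059 and 961 in KO. Eed itself, the check of the labels, read 15.3 to 18.4 CPM in WT and 3.83 to 7.52 in KO at baseline, and 14.6 to 23.2 against 2.75 to 5.82 after PHx, with no overlap between genotypes. Libraries of the same group stood apart after PHx: Mki67, a gene of dividing cells, read 0.217 and 0.284 CPM in WT replicates 2 and 4 and 327.9 in WT replicate 5, and in KO it ran from 3.42 to 118.5. Results were therefore recomputed without each library in turn.

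Markers of other liver cells are given beside the shares of all genes called in KO, 11.1% higher and 4.89% lower at baseline and 16% and 8.2% after PHx. The summed CPM of 14 stellate and fibroblast markers was 202.4 to 337.1 in WT and 521.3 to 749.8 in KO at baseline, and 239.9 to 300.1 against 363.7 to 627.6 after PHx, and 9 of the 14 were called higher in KO at baseline and 6 after PHx. The sum of 8 cholangiocyte and progenitor markers was 34.1 to 79.1 in WT and 73.9 to 384.0 in KO at baseline, and 35.2 to 255.7 against 136.3 to 603.1 after PHx, with 1 of 7 tested called higher at baseline and 5 of 7 after PHx. Of 8 macrophage markers 3 were called higher at baseline and 1 after PHx, of 8 endothelial markers 1 at each stage, of 5 tested mesothelial and smooth muscle markers 1 at each stage, and of 5 tested erythroid markers 0 were higher, while Alas2 was called lower at both stages and Tfrc after PHx. A count of 1 of 7 or 1 of 8 is near the share of all genes. The 8 hepatocyte markers, the labelled tissue's own, summed to 124520 to 142836 in WT and 75432 to 100755 in KO at baseline, and to 71600 to 119048 against 38574 to 92669 after PHx. Of these 8, 3 were called lower in KO at baseline (Apoa1, Serpina1a and Cyp2e1) and 2 after PHx (Apoa1 and Serpina1a). No marker was at 0 in any whole group. The part of these cells in the results below was not tested, and in whole liver more cells of a type and more RNA per cell cannot be told apart.

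Igf2, which codes for insulin-like growth factor 2, the main growth factor of the fetus, was close to silent in WT liver and was read in every KO library. The gene lies on chromosome 7 at 142650766 to 142666816 on the minus strand (GRCm38, GENCODE M21). In WT at baseline replicates 1 to 5 read 0.260, 0.05, 0.720, 0.275 and 0.0459 CPM, and after PHx 0.0436, 0.217, 0.114, 0.0709 and 0.103 CPM. These levels rest on 26 and 14 counts over 5 libraries, so counting error alone is large there. In KO at baseline replicates 7, 8, 10, 11 and 12 read 0.332, 0.676, 1.76, 0.955 and 2.02 CPM, and after PHx 7.85, 19, 12.6, 38.1 and 2.08 CPM. The groups at baseline overlapped, since KO replicates 7 and 8 lay below the highest WT library, while after PHx all 5 KO libraries lay above all WT libraries.

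At baseline the fitted log2 difference of Igf2 between KO and WT was 2.08 ± 0.73 (SE, n = 5 and 5). Igf2 passed the filter on low counts only through KO libraries (10, against 1 WT library, at a cutoff that 5 must reach), and the KO libraries of this comparison also enter the change after PHx that chose it, so the value is a description with no test. Without WT replicate 3 it moved to 2.85. After PHx the mean was 15.9 ± 13.9 CPM in KO (SD, n = 5) and 0.110 ± 0.0662 in WT, a ratio of 145 that chose the gene. Without KO replicate 11 the log2 ratio of means moved from 7.18 to 6.56. Within KO the mean after PHx was 13.9 times that at baseline, a log2 ratio of 3.79 that moved to 3.18 without KO replicate 11, and in WT the log2 response was -1.26 ± 0.85 (edgeR adjusted p = 0.315).

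H19, a long noncoding RNA read from the maternal copy next to Igf2 and also silenced in liver after birth, was higher in KO already before surgery. It lies on chromosome 7 at 142575529 to 142578143 on the minus strand. WT libraries read 0.130, 0.500, 0.103, 0 and 0.138 CPM at baseline and 0.174, 0, 0.152, 0 and 0.0343 CPM after PHx. KO libraries read 3.85, 1.86, 3.66, 2.20 and 4.93 CPM at baseline and 3.33, 18.3, 30.3, 100.6 and 2.65 CPM after PHx. Every KO library lay above every WT library at both stages, but KO replicates 7 and 12 after PHx stayed within the range of KO at baseline.

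The means at baseline were 0.174 ± 0.190 CPM in WT and 3.30 ± 1.26 in KO (SD, n = 5 each). The fitted log2 difference was 4.21 ± 0.96 (SE), with values of 3.88 to 5.12 over 16 alternatives, the highest of them without WT replicate 2. H19 too passed the filter only through KO libraries (10, against 1 WT library), so the same limits as for Igf2 hold and no test is given. After PHx the KO mean of 31 ± 40.5 CPM was 430 times the WT mean of 0.0722 ± 0.0847, the comparison that chose the gene. A single library weighed on it, since KO replicate 11 held 64.8% of the group's summed CPM, and without it the log2 ratio of means moved from 8.75 to 7.56, and without WT replicate 1 to 9.38. Within KO the mean after PHx was 9.41 times that at baseline, and the log2 ratio moved from 3.23 to 2.05 without KO replicate 11. In WT the log2 response was -1.25 ± 1.25 (edgeR adjusted p = 0.520).

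**Figure D1:**
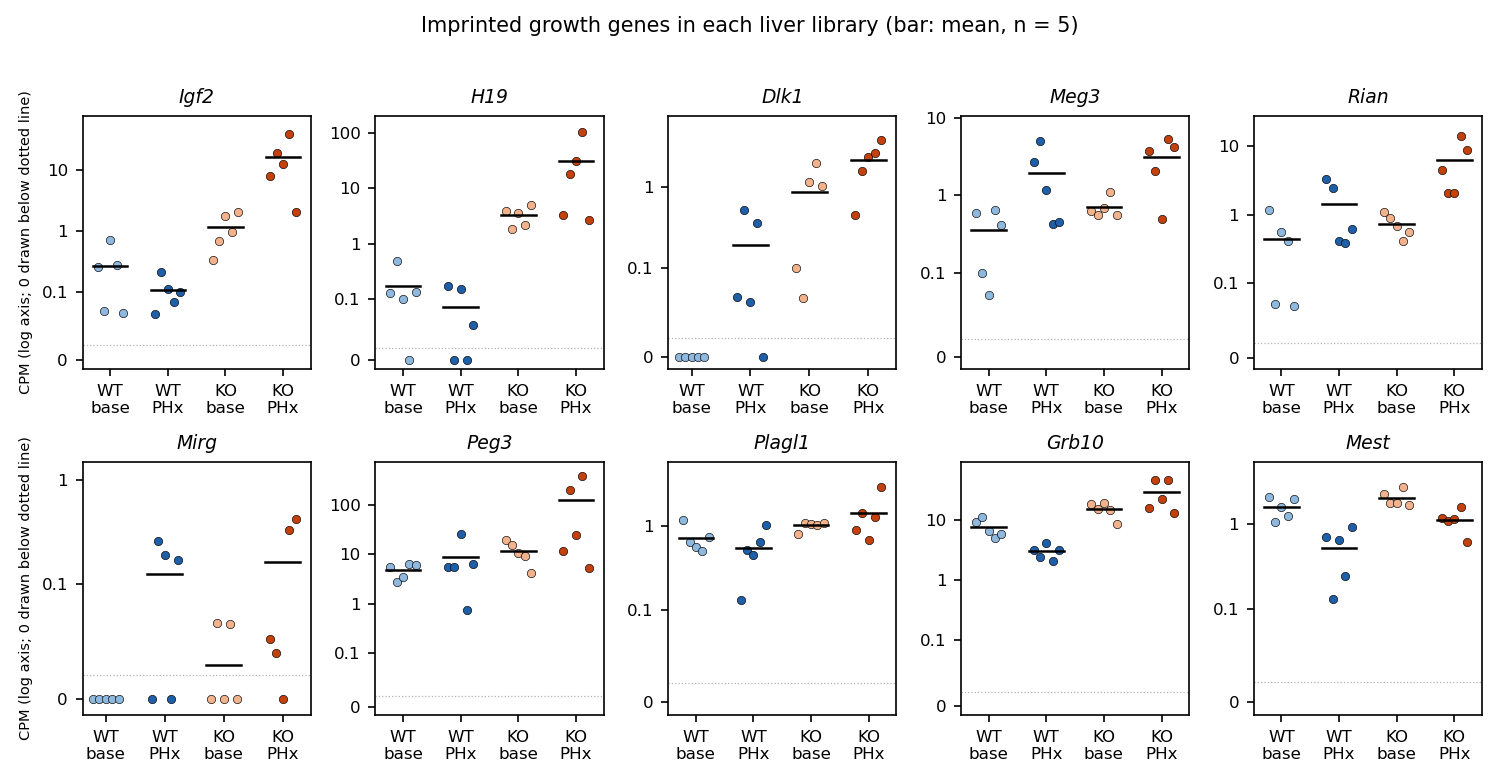
CPM of the 10 genes in every library on a log axis, by genotype and stage, with 0 drawn below the dotted line and a bar at the mean of 5 libraries. Igf2 and H19 read at most 0.720 CPM in any WT library, while KO after PHx reached 38.1 and 100.6 CPM. Dlk1 was at 0 in all 5 WT libraries at baseline.

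The protein-coding genes beside Igf2 and H19 were not called between genotypes. Mrpl23, which codes for a mitochondrial ribosomal protein, read means of 1.09 CPM (WT) and 1.36 CPM (KO) at baseline and of 1.05 and 0.930 CPM after PHx, with log2 differences between genotypes of 0.31 at baseline (edgeR adjusted p = 0.728) and -0.17 after PHx (0.842). Ins2, the insulin gene on the other side, had 0 counts in all 20 libraries. Over the 13 distinct protein-coding neighbours of the members, 6 were tested, and 0 were called between genotypes at baseline, beside 11.1% of all genes called higher and 4.89% lower. After PHx 1 was called higher in KO, Cobl beside Grb10, itself on the list of imprinted genes, at a log2 of 0.83 (edgeR adjusted p = 0.0488), a share near the 16% of all genes called higher.

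Dlk1, Meg3, Rian and Mirg lie in 1 imprinted domain on chromosome 12, in which the father's copy is read for Dlk1 and the mother's for the noncoding RNAs. Dlk1, at 109452823 to 109463336 on the plus strand, codes for a membrane protein with EGF repeats that marks fetal hepatoblasts. It had 0 counts in all 5 WT libraries at baseline, and in WT after PHx it read 0.0436, 0.522, 0.0380, 0.355 and 0 CPM. In KO it read 0.0996, 0.0423, 1.14, 1.95 and 1.03 CPM at baseline and 0.450, 1.58, 2.36, 2.61 and 3.79 CPM after PHx. All KO libraries at baseline lay above WT, though replicates 7 and 8 only barely, and after PHx the groups overlapped through WT replicate 2 and KO replicate 7.

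Against a floor of 3 counts over the WT group, Dlk1 was at least 27.1-fold higher in KO at baseline. After PHx the means were 0.192 ± 0.233 and 2.16 ± 1.24 CPM (SD, n = 5 each), with a fitted log2 difference of 3.47 ± 1.02 (SE) that moved to 4.22 without WT replicate 2. Dlk1 passed the filter on low counts only through the KO, with 8 KO libraries and 1 WT library at its cutoff, so a call higher in KO was favoured by the filter and both differences are descriptions with no test. The responses to PHx were not called. In WT the test of the response gave an edgeR adjusted p of 0.0548, with 54.5% of the summed CPM after PHx in replicate 2, and 6 of 16 alternatives called it, among them each mouse as a block (edgeR adjusted p = 0.0498). In KO the log2 response was 1.33 ± 0.91 (edgeR adjusted p = 0.275), although Dlk1 was higher after PHx in 5 of 5 KO mice, by 1.34- to 37.4-fold. The highest fold is that of replicate 8, whose baseline level rests on 1 count, and the baseline of replicate 7 rests on 3.

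Meg3, a noncoding RNA at 109541001 to 109571726 on chromosome 12, plus strand, was higher after surgery in both genotypes and was not called between genotypes. WT libraries read 0.585, 0.1, 0.0515, 0.642 and 0.413 CPM at baseline and 2.70, 5.13, 1.18, 0.425 and 0.446 CPM after PHx. KO libraries read 0.631, 0.549, 0.690, 1.12 and 0.563 CPM at baseline and 3.72, 2.04, 0.496, 5.39 and 4.21 CPM after PHx. Genotypes overlapped at both stages, and the WT libraries at 48 h lay within the range of WT at baseline. The log2 difference between genotypes was 0.98 ± 0.74 at baseline and 0.69 ± 0.67 after PHx (edgeR adjusted p = 0.393 and 0.493). The log2 response was 2.45 ± 0.75 in WT (edgeR adjusted p = 0.0259) and 2.15 ± 0.71 in KO (0.0293). Neither held with each mouse as a block, where the WT value was 2.00 (edgeR adjusted p = 0.242) and the KO value 1.90 (0.107), and without WT replicate 2 after PHx the WT value was 1.72 (0.108). The WT call was also lost without WT baseline replicate 2 (0.0649) or 3 (0.0631), and the KO call without any of 7 of the 10 KO libraries (0.0512 to 0.0639).

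Rian, the host of a cluster of small nucleolar RNAs, lies at 109603940 to 109661716 on chromosome 12, plus strand, and rose after PHx in the KO. WT libraries read 1.17, 0.05, 0.566, 0.413 and 0.0459 CPM at baseline and 3.31, 2.44, 0.419, 0.390 and 0.618 CPM after PHx. KO libraries read 1.10, 0.887, 0.690, 0.415 and 0.563 CPM at baseline and 4.50, 2.06, 2.06, 13.9 and 8.81 CPM after PHx. All KO libraries after PHx lay above all at baseline, and each of the 5 KO mice was higher after PHx, by 2.33- to 33.5-fold. The log2 response in KO was 3.09 ± 0.78 (edgeR adjusted p = 0.00768), a call kept in all 17 alternatives, the block among them. In WT it was 1.7 ± 0.78 (edgeR adjusted p = 0.133), and the difference of the responses was 1.39 ± 1.08 (0.614). Between genotypes the log2 difference was 0.74 ± 0.78 at baseline (edgeR adjusted p = 0.557) and 2.13 ± 0.75 after PHx (0.0425). The latter was lost with only the groups after PHx in the fit (0.108) and without WT replicate 3 (0.0924), 4 (0.0837) or 5 (0.0917) or KO replicate 11 (1.61, 0.133) or 12 (0.0716).

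Mirg, which hosts a cluster of microRNAs at 109729764 to 109749460 on chromosome 12, plus strand, was too low to test. It had 0 counts in WT at baseline and 2 in KO at baseline over 5 libraries, and 16 in WT and 23 in KO after PHx. KO replicates 11 and 12 after PHx, at 0.334 and 0.426 CPM, read highest, and the WT libraries after PHx reached 0.261 CPM. Rtl1 and Begain, the protein-coding neighbours of Dlk1, stayed at means of at most 0.0644 and 0.0832 CPM, both in KO after PHx.

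Peg3, a zinc finger protein gene read from the paternal copy on chromosome 7 at 6703892 to 6730431, minus strand, reached the highest CPM of the 10 genes. WT libraries read 5.46, 2.80, 3.5, 6.42 and 6.06 CPM at baseline and 5.49, 5.48, 26.1, 0.744 and 6.49 CPM after PHx. KO libraries read 19.2, 15.8, 10.9, 9.47 and 4.27 CPM at baseline and 11.5, 201.2, 25, 378.2 and 5.40 CPM after PHx. KO replicates 8 (48 h) and 11 (40 h) lay far above all other libraries, and the other 3 KO libraries after PHx overlapped WT. The log2 difference was 1.3 ± 0.90 at baseline (edgeR adjusted p = 0.349) and 3.81 ± 0.97 after PHx (0.00717), with means of 8.87 ± 9.91 and 124.3 ± 163.6 CPM (SD, n = 5 each). The baseline difference was called with only the baseline groups in the fit (edgeR adjusted p = 0.0105). The difference after PHx moved to 2.70 without KO replicate 11 (edgeR adjusted p = 0.0328) and to 4.77 without WT replicate 3, and was lost with only the groups after PHx in the fit (0.0753). The log2 response in KO was 3.38 ± 0.95 (edgeR adjusted p = 0.0133), and it did not hold without KO replicate 11 (2.26, 0.0525) or with each mouse as a block (1.86, 0.189). In WT it was 0.87 ± 0.89 (edgeR adjusted p = 0.531), and it turned to -0.09 without WT replicate 3 after PHx.

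Plagl1, a zinc finger transcription factor gene on chromosome 10 at 13060504 to 13131694, plus strand, is known to activate other imprinted growth genes. WT libraries read 1.17, 0.650, 0.566, 0.504 and 0.734 CPM at baseline and 0.131, 0.522, 0.457, 0.638 and 1.03 CPM after PHx. KO libraries read 0.796, 1.10, 1.07, 1.04 and 1.08 CPM at baseline and 0.899, 1.45, 0.687, 1.28 and 2.94 CPM after PHx. The ranges overlapped at both stages. The log2 difference after PHx was 1.36 ± 0.45 (edgeR adjusted p = 0.0334), and it was lost in 8 of 17 alternatives, among them without KO replicate 12, the 30 h library (0.94, 0.116). At baseline it was 0.49 ± 0.45 (edgeR adjusted p = 0.493), and neither response was called, with log2 values of -0.36 ± 0.46 in WT (0.619, turning to 0.03 with library size alone and 0.06 with each mouse as a block) and 0.51 ± 0.44 in KO (0.391).

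Grb10, which codes for an adaptor that binds the insulin and IGF1 receptors and dampens their signal, was lower after PHx in WT and higher in most KO mice. The gene lies on chromosome 11 at 11930508 to 12038683, minus strand. WT libraries read 8.97, 11, 6.43, 4.95 and 5.83 CPM at baseline and 3.14, 2.39, 4.07, 2.02 and 3.16 CPM after PHx. KO libraries read 18, 15, 19, 14.3 and 8.36 CPM at baseline and 15.4, 45.5, 21.7, 45.9 and 13 CPM after PHx. All 4 WT mice with a number in both titles were lower after PHx, at 0.217 to 0.633 of their baseline, and 4 of 5 KO mice were higher, with folds of 0.853 to 3.21 over all 5. After PHx the genotypes did not overlap.

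The log2 difference of Grb10 after PHx was 3.26 ± 0.37 (edgeR adjusted p = 6.14e-06). The means were 2.96 ± 0.792 and 28.3 ± 16.2 CPM (SD, n = 5 each), and the difference was called in all 17 alternatives. At baseline it was 1.00 ± 0.35 (edgeR adjusted p = 0.0529), just outside the threshold, and 6 of 16 alternatives called it, at 0.00648 with only the baseline groups in the fit. The WT response was -1.33 ± 0.35 (edgeR adjusted p = 0.0126), lost only with library size alone among 17 alternatives (-0.96, 0.0841). The KO response was 0.92 ± 0.34 (edgeR adjusted p = 0.0477), and it was lost in 10 of 17 alternatives, at 0.77 with each mouse as a block (0.101), 0.67 without KO replicate 8 (0.160) and 0.63 without KO replicate 11 (0.151). The difference of the 2 responses was 2.25 ± 0.49 (edgeR adjusted p = 0.0466). It was lost in 21 of 26 alternatives, among them the block (2.03, 0.223), and its log2 value stayed between 1.92 and 2.43 in all 26.

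Mest, a gene for a protein of the alpha/beta hydrolase fold on chromosome 6 at 30723547 to 30748465, plus strand, read lower after PHx in every mouse that could be followed. WT libraries read 2.08, 1.05, 1.60, 1.24 and 1.97 CPM at baseline and 0.698, 0.130, 0.647, 0.248 and 0.927 CPM after PHx. KO libraries read 2.29, 1.77, 1.76, 2.74 and 1.69 CPM at baseline and 1.17, 1.10, 1.14, 1.58 and 0.615 CPM after PHx. Within each genotype the stages did not overlap, and all 4 WT and all 5 KO mice with numbers were lower after PHx. The log2 response was -1.57 ± 0.42 in WT (edgeR adjusted p = 0.0132), lost only with library size alone (-1.16, 0.0607), and -0.86 ± 0.40 in KO, which did not pass (0.108). Between genotypes it was 0.37 ± 0.40 at baseline (edgeR adjusted p = 0.570) and 1.08 ± 0.42 after PHx (0.0652), where 4 of 17 alternatives called it, among them without WT replicate 5 (1.36, 0.0316) and without KO replicate 12 (1.22, 0.0396). Copg2 overlaps Mest on the other strand, and the strand setting of the counts is not given in the sources used here, so reads in the shared part cannot be told apart.

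**Figure D2:**
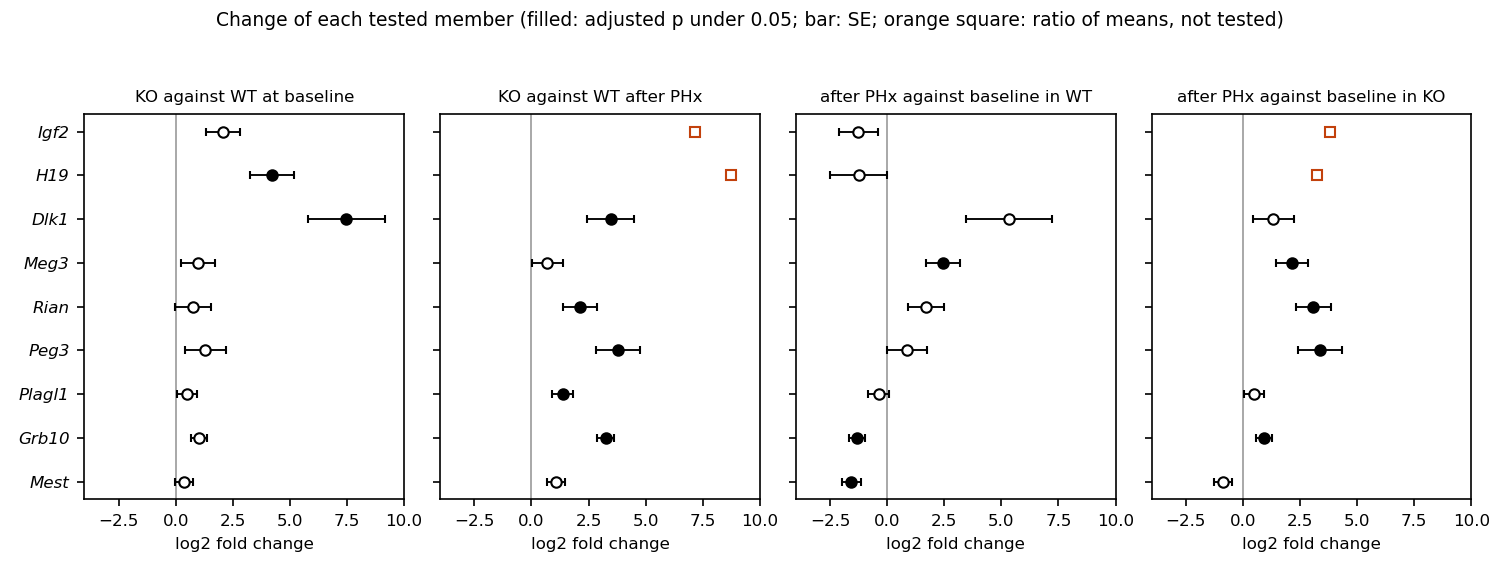
log2 fold change of the 9 members that passed the filter in 4 comparisons, with SE bars. Marks are filled where the edgeR adjusted p was under 0.05, and orange squares are the untested ratios of means of Igf2 and H19. Grb10 and Mest lie below 0 in WT after PHx (-1.33 and -1.57), and Grb10 lies above 0 between genotypes after PHx (3.26). The values of Igf2, H19 and Dlk1 between genotypes are descriptions with no test, also where the marks of H19 and Dlk1 are filled. The fitted value of Dlk1 at baseline is against a group at 0 counts and is no measure of size.

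Of the 6 members that would pass the filter on the WT libraries alone, 0 were called between genotypes at baseline, beside 11.1% of all genes called higher and 4.89% lower. After PHx 4 of the 6 were called higher (Rian, Peg3, Plagl1 and Grb10) and 0 lower, beside 16% and 8.2% of all genes. With only the groups after PHx in the fit Rian (edgeR adjusted p = 0.108), Peg3 (0.0753) and Plagl1 (0.154) were lost. Without WT replicate 3 after PHx Rian (0.0924) and Plagl1 (0.0694) were lost. The median log2 difference of the 6 members was 0.86 at baseline and 1.75 after PHx, against -0.03 and -0.01 over all genes tested. Igf2, H19 and Dlk1 passed only through KO libraries and are left out of these counts, and Mirg was not tested. With them in, the counts would be 2 of 9 (H19 and Dlk1) at baseline, and with Dlk1 5 of 7 after PHx. The filter favoured calls of these genes higher in KO, so these counts describe the fit and are no test. In WT after PHx 1 of 9 was called higher and 2 lower, beside 11.4% and 8.68%. In KO after PHx 4 of 7 were called higher, beside 17.5%, and 1 of 7 with each mouse as a block. For the difference of the responses 1 of 7 was called higher (Grb10), beside 0.164%, and 0 with each mouse as a block. That call was lost in 21 of 26 alternatives. Since the genes were named with earlier results of these data known, the counts describe the members, and nothing further is read from them.

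Set per kilobase of exon, the order of the genes changed between the groups. In WT at baseline Grb10 led at 0.819 CPM per kilobase, followed by Mest at 0.402 and Peg3 at 0.364, and H19 and Igf2 read 0.0708 and 0.0472. In KO after PHx H19 led at 12.6 CPM per kilobase, followed by Peg3 at 9.33, Grb10 at 3.12 and Igf2 at 2.78, while Dlk1 read 0.382, Rian 0.344, Mest 0.284, Plagl1 0.185 and Meg3 0.175. The SDs of H19 and Peg3 in this group exceed their means, so their place in the order is within the spread of the libraries.

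Most members peaked in the same KO mouse, but not all. KO replicate 11, sampled at 40 h, was the highest of the 5 KO libraries after PHx for 7 members (Igf2, H19, Meg3, Rian, Peg3, Grb10 and Mest). KO replicate 12, the only KO library at 30 h, was the lowest for Igf2, H19, Peg3, Grb10 and Mest and the highest for Dlk1, Mirg and Plagl1. KO replicates 11 and 8 also had the highest TMM factors after PHx, 1.51 and 1.5, and the lowest sums of hepatocyte markers, 41273 and 38574 CPM. KO replicate 12 had the lowest factor of this group, 0.977, and the highest sum, 92669 CPM, and the part of these differences in the order of the libraries was not tested. At matched times there were 1 or 2 libraries per genotype, and no test was run. Igf2, H19, Dlk1 and Grb10 were higher in every KO than in every WT library at 30 h, at 40 h and at 48 h. Peg3 in contrast read 5.40 CPM in KO and 5.49 in WT at 30 h. For Igf2 and H19 this order repeats the values that chose them. The share of all genes with such an order was not computed, so nothing further is read from it. By mouse, Igf2 was higher after PHx in 5 of 5 KO mice, by 1.03-fold at 30 h and 7.18- to 39.9-fold at 40 and 48 h, and H19 in 3 of 5, with 0.864 and 0.538 of baseline in replicates 7 and 12.

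**Figure D3:**
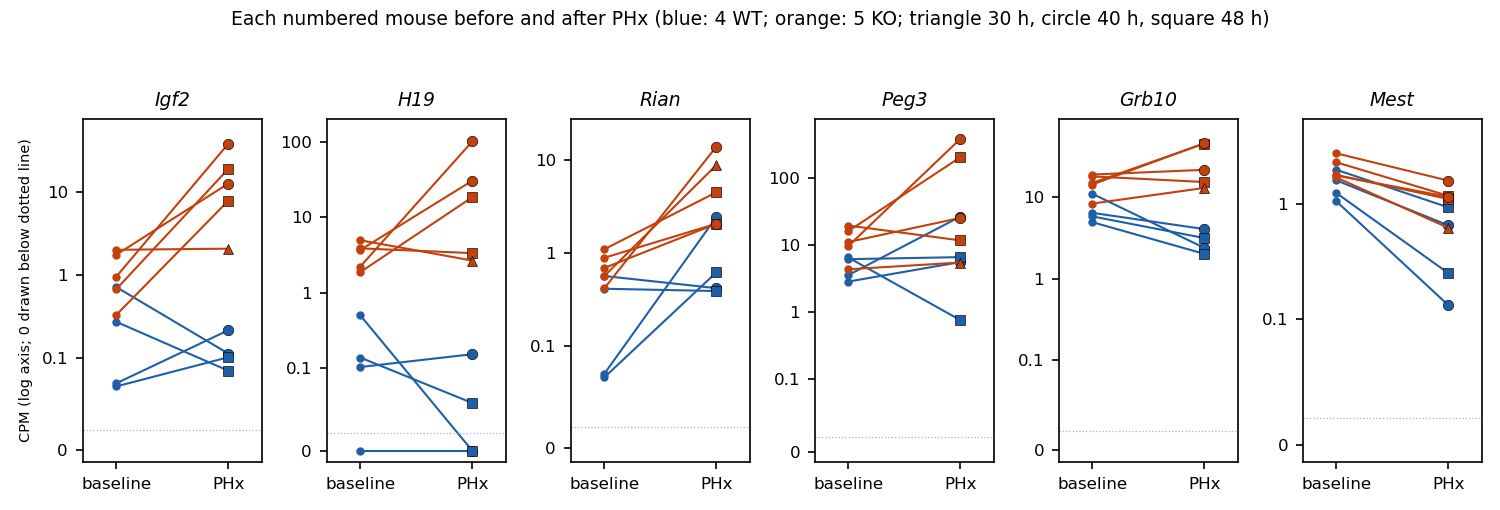
CPM of 6 members in each mouse before and after PHx on a log axis, with 4 WT mice in blue and 5 KO mice in orange and marker shape giving the hour after PHx. Grb10 is lower after PHx in all 4 WT mice and higher in 4 of 5 KO mice, and Mest is lower in all 9. Igf2 in the KO mouse at 30 h stays at 1.03-fold of its baseline.

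The other genes of the insulin-like growth factor axis give the setting of Igf2. Of 22 genes on that list 19 were tested; 6 were called higher and 1 lower in KO at baseline, and the same numbers after PHx, with median log2 differences of 0.32 and 1.03. Of all genes 11.1% were called higher and 4.89% lower at baseline, and 16% and 8.2% after PHx, so the share of the list called lower is near that of all genes. The receptors differed between themselves. Igf1r, the signalling receptor of IGF1 and IGF2, read 0.326 ± 0.0574 CPM in WT and 7.10 ± 2.08 in KO at baseline (SD, n = 5 each; log2 4.43 ± 0.39 SE) and 0.344 ± 0.177 and 9.41 ± 3.68 after PHx (4.74 ± 0.39), with no overlap at either stage. Igf2r, which clears IGF2 from the cell surface, read 48.1 ± 5.75 and 60.1 ± 11.3 CPM at baseline (edgeR adjusted p = 0.581) and 52.2 ± 17.9 and 101.6 ± 67.8 after PHx (0.0560). Insr, the insulin receptor, read 130.5 ± 16.5 and 92.1 ± 12.9 CPM at baseline (edgeR adjusted p = 0.0549) and 98.2 ± 14.1 and 90.6 ± 25.1 after PHx (0.667).

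Igf1, the growth factor that adult liver makes in place of Igf2, was lower in KO. It read 858.2 ± 110.0 CPM in WT and 546.8 ± 80.7 in KO at baseline (log2 -0.65 ± 0.21 SE, edgeR adjusted p = 0.0446) and 665.1 ± 106.6 and 367.8 ± 119.2 after PHx (-0.85 ± 0.22, 0.00689), with no overlap at either stage. The baseline call was lost in 11 of 16 alternatives, with library size alone (-0.18, edgeR adjusted p = 0.525) and without any of WT replicates 2, 3, 4 and 5 and KO replicates 7, 10, 11 and 12 among them, and the call after PHx with only the groups after PHx in the fit (0.0837). The 3 genes for IGF2 mRNA binding proteins, fetal RNA binding proteins that bind Igf2 mRNA among other transcripts, were higher in KO at both stages. Igf2bp1 had 0 counts in all 10 WT libraries and read 2.39 ± 0.868 CPM in KO at baseline and 18.5 ± 10.9 after PHx, at least 81.4-fold and 887-fold higher. Igf2bp3 had 0 counts in WT at baseline and was at least 634-fold higher in KO, at 19.2 ± 4.19 CPM, and after PHx it read 0.231 ± 0.133 in WT and 31.1 ± 14.7 CPM in KO (log2 7.07 ± 0.50). Igf2bp2 rose from 0.524 ± 0.284 to 5.06 ± 0.799 CPM at baseline (log2 3.29 ± 0.34, edgeR adjusted p = 2.96e-06) and from 1.93 ± 0.657 to 16.1 ± 4.58 after PHx (3.05 ± 0.32, 2.98e-06). The other genes called higher were Igfbp7 at both stages, Stc2 at baseline and Igfbp3 after PHx. Igf1r, Igf2bp1, Igf2bp3 and Stc2 passed the filter only through KO libraries, which favours a call higher in KO, so their differences are descriptions with no test. Of the 13 genes of the list that would pass on the WT libraries alone, 2 were called higher and 1 lower at baseline, and 3 and 1 after PHx.

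**Figure D4:**
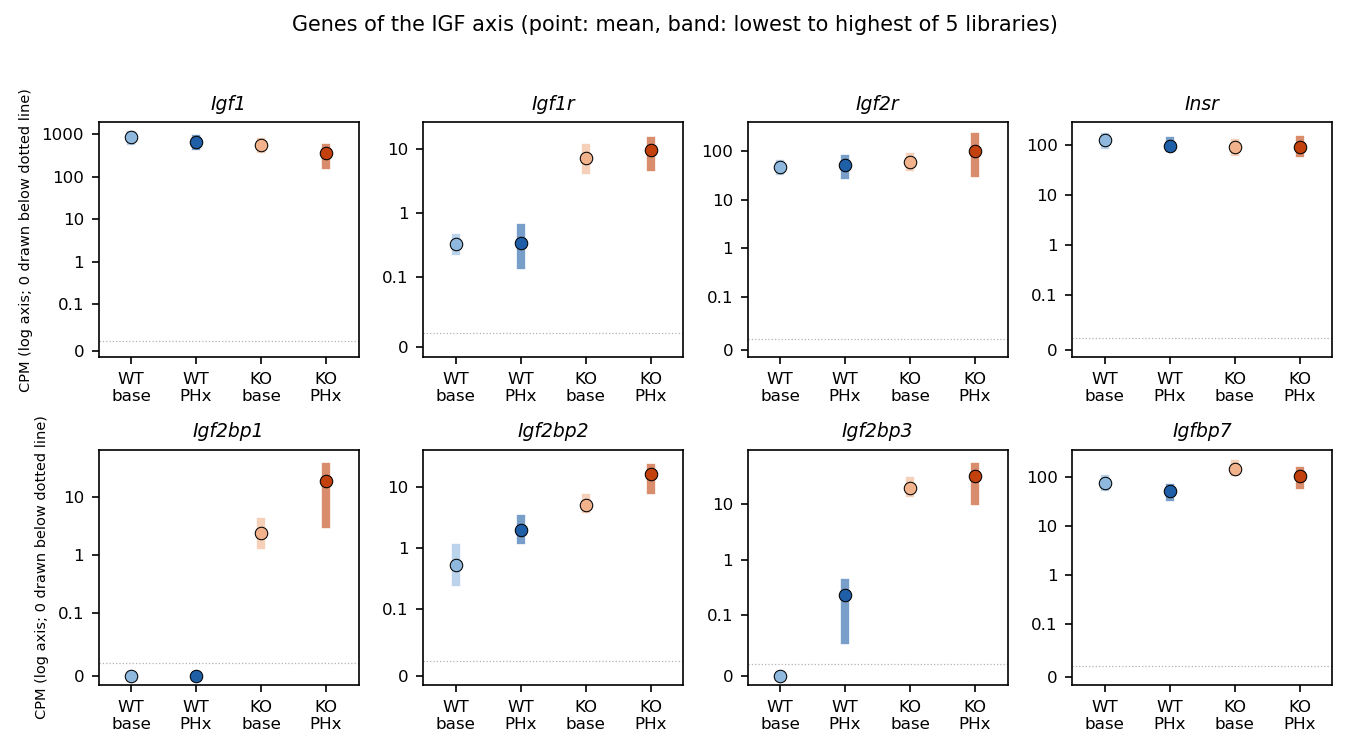
CPM of 8 genes of the IGF axis on a log axis, as the mean (point) and the lowest to highest of 5 libraries (band) in each group. Igf1r and the 3 Igf2bp genes are higher in KO at both stages, Igf1 is lower, and Igf2bp1 is at 0 in both WT groups.

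Of 68 other imprinted genes listed, 47 were tested. In KO 8 were called higher and 2 lower at baseline, and 13 and 6 after PHx, with median log2 differences of 0.14 and 0.03. Dcn, called higher at both stages, is also among the stellate and fibroblast markers above. The shares over all genes are 11.1% and 4.89% at baseline and 16% and 8.2% after PHx, and at baseline the share called lower is near that of all genes. With library size alone 15 were called higher and 0 lower at baseline, and 18 and 1 after PHx. That scaling also called more of all genes higher and fewer lower, as given above. The shares in this paragraph therefore do not apply to its counts. Asb4, Sfmbt2 and Phlda2 passed the filter only through KO libraries, so their differences are descriptions with no test. Of the 42 genes that would pass on the WT libraries alone 6 were called higher and 2 lower at baseline, and 10 and 6 after PHx. Cdkn1c, an inhibitor of the cell cycle that restrains fetal growth, rose from 0.868 ± 0.205 to 4.44 ± 2.02 CPM at baseline (SD, n = 5 each; log2 2.35 ± 0.57 SE, edgeR adjusted p = 0.00846) and from 0.461 ± 0.369 to 4.75 ± 3.73 after PHx (3.34 ± 0.60, 0.000482). Sfmbt2, a polycomb-related gene, had 1 count over the WT group at baseline and read 2.91 ± 1.04 CPM in KO, and after PHx it read 0.0901 ± 0.0970 in WT and 7.24 ± 4.39 CPM in KO (log2 6.30 ± 0.64, and 7.12 without WT replicate 2). Phlda2, known to restrain growth of the placenta, read 0.483 ± 0.493 CPM in WT and 4.11 ± 2.85 in KO after PHx (log2 3.07 ± 0.81, and 3.79 without WT replicate 3). Slc22a3, an organic cation transporter gene, rose from 1.93 ± 0.566 to 12.1 ± 3.06 CPM at baseline (2.64 ± 0.32, edgeR adjusted p = 1.36e-05).

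Of those called lower, Ube3a, a ubiquitin ligase gene, fell by 0.86 on the log2 scale at baseline (SE 0.29, edgeR adjusted p = 0.0451). Pon2, a lactonase gene, read log2 -0.41 ± 0.14 at baseline (edgeR adjusted p = 0.0453), and with library size alone the value was 0.06. Both baseline calls were lost in 12 of 16 alternatives, without any of the 5 WT libraries among them. After PHx the noncoding Kcnq1ot1 fell by 1.27 (SE 0.32, edgeR adjusted p = 0.00770), Impact by 0.93 (0.26, 0.0125) and Zrsr1 by 0.89 (0.25, 0.0120). All 3 were lost with only the groups after PHx in the fit (edgeR adjusted p = 0.0617, 0.0567 and 0.110), and Impact and Zrsr1 also with library size alone (0.162 and 0.152).

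Among 17 regulators of imprints and fetal genes, 16 were tested; 1 was called higher and 2 lower in KO at baseline, and 4 and 2 after PHx, beside 11.1% and 4.89% of all genes at baseline and 16% and 8.2% after PHx. With library size alone 5 were called higher and 1 lower at baseline and 9 and 2 after PHx. That scaling also called more of all genes higher and fewer lower, as given above, so the shares here do not apply to it. With at least 1 CPM in 5 samples as the filter 2 were higher after PHx. Tet1 and Plag1 passed the main filter only through KO libraries, so their differences are descriptions with no test. Of the 13 regulators that would pass on the WT libraries alone, 1 was called higher and 2 lower at baseline, and 2 and 2 after PHx. Zbtb20, a zinc finger repressor of fetal liver genes such as the gene for alpha-fetoprotein, fell at both stages, from 166.4 ± 48.6 to 68.6 ± 15 CPM at baseline (SD, n = 5 each; log2 -1.28 ± 0.32 SE, edgeR adjusted p = 0.0101) and from 180.0 ± 81.3 to 48.4 ± 22.6 after PHx (-1.89 ± 0.33, 0.000345), the former lost with library size alone (-0.78, 0.0985). Zfp445, which helps to keep methylation at imprinted control regions, fell by 1.77 at baseline (SE 0.43, edgeR adjusted p = 0.00784) and by 1.87 after PHx (0.43, 0.00343). Dnmt3a, a DNA methyltransferase gene, rose by 0.77 ± 0.23 on the log2 scale at baseline (edgeR adjusted p = 0.0278), a call lost without WT replicate 2, 3 or 4 or KO replicate 10 or 12 (0.0604 to 0.0785). After PHx Plagl2, a relative of Plagl1, rose by 1.65 ± 0.28 (edgeR adjusted p = 0.000321), and Plag1, another, read 0.218 ± 0.151 CPM in WT and 1.17 ± 0.495 in KO. Zfp57, another keeper of imprints, rose by 1.90 ± 0.48 (0.00709), lost with only the groups after PHx in the fit (0.0547).

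The genes whose pattern was most like that of Igf2 were found by Pearson's r of log2(CPM + 1) over the 20 libraries, among 12532 genes with a mean of at least 1 CPM. They were Spire2 (0.956), Erbb2 (0.954) and Bex3 (0.948). For H19 they were Aqp7 (0.946), Mep1a (0.937) and 2310007B03Rik (0.934), and for Dlk1 Fbxo44 (0.849), Pmp22 (0.843) and Greb1l (0.830). The 20 points share the 4 groups, so any gene that differs in the same groups scores high, and the values are a description with no p.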

How the data were processed

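Each library has a deposited table of raw counts, the number of reads the authors assigned to each Ensembl identifier, with no normalisation. Per the series' design text, RNA of integrity above 8 (1000 ng) went into TruSeq poly(A) libraries sequenced paired-end on a NovaSeq 6000, reads were aligned to mm10, and uniquely mapped reads were counted. That text names fastp 0.20.0 for trimming, whereas the submitters' processing notes name Trimmomatic 0.36, and both give FastQC 0.11.5. Aligner, counting program, strand setting and annotation release are not given in the sources used here, so reads where 2 genes share sequence on both strands cannot be told apart.

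Counts were tested with edgeR 4.0.16 in R 4.3.3 (quasi-likelihood test, two-sided, TMM scaling). The filterByExpr filter on the 4 groups left 14661 genes. The fit used every sample and 4 group means. A gene is called where its p, adjusted by Benjamini-Hochberg across the 14661 genes, is under 0.05. The 5 comparisons were KO against WT at baseline and after PHx, the response to PHx in each genotype, and the difference of the responses. DESeq2 1.42.0, other scalings and filters, a fit on the groups compared alone, a fit with time after PHx, and leaving out each library were alternatives. The scripts were tested on simulated data. A floor of 3 counts over a group stands for 0 counts and covers counting error only.

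The labels say that each mouse gave both samples, and 9 of the mice carry a number in the titles of both samples (WT baseline replicate 1 has none). Same-number residuals correlated at -0.05 to 0.15 and different numbers at -0.23 to 0.26, so the pairing rests on the labels. No label says whether libraries of a group were prepared separately.

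The members, gene lists and tests were chosen with earlier results of these data known. All members were named in every comparison. From each list up to 3 called genes per direction, taken by log2 change between genotypes, with a mean of at least 1 CPM in a group, were named, and Igf2r, Insr and Igf2bp2, and the names of the other called IGF genes, were added after their values were seen.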

Additional observations from a re-analysis of the deposited data

Results flagged for a closer look

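In groups of 5 libraries, the highest or lowest value was set apart where its gap to the nearest library, divided by the range of the group, was above 0.71. This was so in 5 of 38 sets of 1 member in 1 group with any spread. Chance sets apart about 1 in 20 where values are normally distributed. CPM from few counts need not be, so no excess is read from the number. H19 read 0.500 CPM in WT baseline replicate 2, from 10 counts, where the next library read 0.138. H19 read 100.6 CPM in KO replicate 11 after PHx, where the next read 30.3. Meg3 read 1.12 CPM in KO baseline replicate 11, from 27 counts, with the next at 0.690. Peg3 read 26.1 CPM in WT replicate 3 after PHx, with the next at 6.49. Plagl1 read 0.796 CPM in KO baseline replicate 7, below the next at 1.04.

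In the test of the difference of the responses to PHx, Grb10 gave 2.25 on the log2 scale (edgeR adjusted p = 0.0466). The call was lost in 21 of 26 alternatives, among them each mouse as a block (2.03, edgeR adjusted p = 0.223), which takes into account that the same mice gave both samples, and adjusted p-values ran from 0.00216 to 0.223.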

How the results depend on the processing

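Of 1207 alternative values for 70 single genes and comparisons, 1070 kept their direction and side of the threshold, 109 lost a call, 23 gained one and 5 changed sign. These were Pon2 at baseline with library size alone (log2 of 0.0640), and, called in no fit, the WT response of Peg3 without WT replicate 3 after PHx (-0.0924, with 1.23 the highest without single libraries), that of Plagl1 with library size alone (0.0340) and with the replicate block (0.0610), and the difference of responses of Meg3 without WT replicate 2 after PHx (0.430, with -0.639 the lowest). The causes were not tested. Members called higher in KO at baseline (2) numbered 4 with library size alone, with DESeq2 and with only the groups compared, and 2 to 3 without single libraries, with 0 lower throughout. After PHx the 5 called numbered 2 with only the groups compared, and 3 to 5 without single libraries (3 without WT replicate 3 or 4), with 0 lower. The baseline 2 are H19 and Dlk1, and the 5 after PHx include Dlk1. These genes, and Igf2 among the gains, passed the filter only through KO libraries. The counts describe the fits and are no test of these genes. Calls over all genes moved with the scaling too, as given above. In WT after PHx 1 higher and 2 lower became 3 and 0 with library size alone and 2 higher with DESeq2, and ran from 0 to 2 and stayed at 2 without single libraries. In KO after PHx the 4 higher ran from 1 to 4 without single libraries (1 without KO replicate 11 after PHx, and 2 without KO baseline replicate 7, 8, 10 or 12), with 0 lower. The difference of responses (1 higher, 0 lower) gave 0 with median of ratios factors, library size alone and no filter, and 0 to 1 without single libraries.

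With each mouse as a replicate block on the 9 pairs, members called higher in KO after PHx numbered 1 and those in the difference 0, the block added a call of Dlk1 in WT and took that of Meg3, and over all genes 884 higher and 1095 lower were called in WT and 1625 and 1759 in KO, and 2 and 5 for the difference.

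Other imprinted genes called in KO at baseline (8 higher, 2 lower) numbered 15 and 0 with library size alone, 13 higher with DESeq2, 14 and 9 with only the groups compared, and 0 lower with median of ratios factors and with no filter. They ran from 7 to 9 and from 0 to 1 without single libraries. With library size alone the calls over all genes also rose for higher and fell for lower, as given above. After PHx (13 and 6) the other imprinted genes called numbered 7 and 0 with only the groups compared, 1 lower with library size alone and 13 lower with time in the fit. Without single libraries they ran from 11 to 15 and from 4 to 10 (10 without KO replicate 10). Depth limits Igf2, H19, Dlk1 and Mirg in WT, where groups hold at most 26 counts. Single time points after PHx have 1 or 2 libraries per genotype and gave no test.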

Other observations

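Some genes at the edges of the imprinted domains, named after their values were seen, were read mainly in KO libraries. Igf2os, annotated on the strand opposite Igf2, had 0 counts in the 15 libraries of the other groups and 83, 41, 9, 12 and 4 counts in KO replicates 7, 8, 10, 11 and 12 after PHx (2.49, 0.900, 0.343, 0.334 and 0.189 CPM). Reads of Igf2 and Igf2os cannot be told apart where they overlap, as the strand setting is not given in the sources used here, and the order of the 5 libraries differs from that for Igf2, whose highest level was in replicate 11. Dio3, a deiodinase gene at the far end of the domain that holds Dlk1, read 0.0286 ± 0.0417 CPM in WT at baseline and 0.453 ± 0.268 in KO at baseline (SD, n = 5 each), with no overlap, and 0.0221 ± 0.0337 and 0.240 ± 0.190 after PHx, where the groups overlapped. Zim1, the neighbour of Peg3, read at most 0.207 CPM in any library but those of KO after PHx, where it ranged from 0 to 6.00 CPM. Dio3 and Zim1 did not pass the filter on low counts, and these differences were not tested.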
